A study of Mus musculus with 21 samples.

Results

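Alpha tubulin isotype genes of the mouse were described in poly(A) RNA of oocytes. The members were taken as a list of 7 symbols, *Tuba1a*, *Tuba1b*, *Tuba1c*, *Tuba3a*, *Tuba3b*, *Tuba4a* and *Tuba8*, and all 7 were found among the 54232 genes of the count table. The list was not chosen by expression, but earlier results of these data were known when it was made. It leaves out the alpha tubulin-like gene *Tubal3*. Fully grown oocytes at the germinal vesicle stage, that is, arrested in meiotic prophase before spindle assembly, were taken from females of 3 to 4 months, 48 h after injection of 5 IU of equine chorionic gonadotropin or 0.1 mL of HyperOva, an agent for hyperovulation. The study asked how much of the spindle motor KIF11 oocytes need, and the 21 libraries, of 3 oocytes each, differ in the alleles of *Kif11* and in the Cre driver. The control was *Kif11* wt/fl without Cre (4 libraries), with a wild-type and a floxed allele. The other groups were wt/fl Spo11-Cre (5 libraries), fl/del (4 libraries), in which the del allele is a constitutive deletion, fl/del Spo11-Cre (4 libraries), fl/fl Gdf9-Cre (2 libraries) and fl/fl Zp3-Cre (2 libraries). All groups thus carried at least 1 floxed allele, also the control, and the line was made on the C57BL/6 background. Spo11-Cre acts from meiotic prophase on, whereas *Gdf9* and *Zp3* are genes of growing oocytes whose promoters drive the other Cre lines. No group of fl/fl oocytes without Cre was analysed here, and the methods describe 17 libraries, the number of the first 4 groups, so driver, genotype and library set cannot be told apart for the fl/fl groups. Each mouse gave 1 or 2 libraries, so p-values measure the spread between libraries and not only that between animals. The names of both libraries of each fl/fl group begin alike, with the driver. Whether they came from the same mouse is not known, also where a fl/fl result is given with a p-value.

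Microtubules are built from dimers of alpha and beta tubulin, and the alpha subunit exists in several isotypes encoded by separate genes. The isotypes are nearly identical in their core and differ mostly in the acidic tail at the end of the protein, which faces outwards and carries modifications such as the removal and return of the last tyrosine. A further modification, acetylation of lysine 40, lies inside the microtubule. In somatic tissues *Tuba1a*, *Tuba1b* and *Tuba1c* are the widely expressed isotypes, with *Tuba1a* prominent in neurons, whereas *Tuba3a* and *Tuba3b* are known as the isotypes of the testis and encode the same protein. The oocyte stores these mRNAs and proteins for the spindle of the meiotic divisions.

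The sequences that encode these tails are shown first, since the tail distinguishes the isotypes named in the results. They are, for 6 of the genes, the last 10 codons of the coding sequence, 5′ to 3′ on the coding strand, from the GENCODE M21 transcripts of GRCm38, with the last amino acid codon and the stop codon in capitals.
Tuba1b: gagggggaggaagaaggagaggagTACTAA
Tuba1c: gaaggagacgatgagggtgaggaaTATTAA
Tuba3a: gcagaggcagaagaaggggaggagTACTGA
Tuba3b: gcagaggcagaagaaggggaggagTACTGA
Tuba4a: tatgaggacgaggatgagggagaaGAGTAG
Tuba8: gaagaagagaatgagggggaggaaTTTTAA
The last codon was one for tyrosine, TAC or TAT, in 4 of these 6 genes. It was a glutamate codon in *Tuba4a* and a phenylalanine codon in *Tuba8*. *Tuba3a* and *Tuba3b* shared the same 30 bases. The other stretch shown surrounds codon 40, in capitals, where the acetylated lysine is encoded.
Tuba1a, Tuba1b and Tuba1c: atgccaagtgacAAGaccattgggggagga
Tuba3a and Tuba3b: atgccaagcgacAAAaccattggcggcggg
Tuba4a: atgcccagcgatAAGaccattggtggaggg
Tuba8: tttggcactcagGCCagcaagatcaacgat
A lysine codon stood at position 40 in 6 of the 7 genes, and *Tuba8* had the alanine codon GCC there.

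The genes are spread over 3 chromosomes (GRCm38). *Tuba1b* (ENSMUSG00000023004, chr15:98931425-98934565, minus strand), *Tuba1a* (ENSMUSG00000072235, chr15:98949837-98953703, minus strand) and *Tuba1c* (ENSMUSG00000043091, chr15:99029891-99038110, plus strand) lie side by side on chromosome 15. On chromosome 6 lie *Tuba8* (ENSMUSG00000030137, chr6:121210696-121226854, plus strand), *Tuba3a* (ENSMUSG00000067702, chr6:125278274-125286042, minus strand) and *Tuba3b* (ENSMUSG00000067338, chr6:145615757-145621479, plus strand). *Tuba4a* (ENSMUSG00000026202) is at chr1:75214228-75219865 on the minus strand. The coding sequences of *Tuba3a* and *Tuba3b* were 97.0% identical, yet only 2.65% of the 150-base stretches of the *Tuba3a* transcript, the length of a read, occurred exactly in another gene. The share was 2.21% for *Tuba3b*, so reads of the full 150 bases from this pair could mostly be told apart. For *Tuba1a*, *Tuba1b* and *Tuba1c*, with 98.3%, 97.1% and 97.9% identity between them, 54.7%, 57.9% and 46.7% of such stretches occurred in another gene, mostly in each other, in pseudogenes and in *Gm49450*, a gene model that spans *Tuba1b* and *Tuba1a* and had 0 counts in every library. Because uniquely mapped reads were counted, the levels of these 3 genes are uncertain. At 75 bases, 19.9% of the stretches of *Tuba3a* and 18.9% of those of *Tuba3b* occurred in another gene. For *Tuba1a*, *Tuba1b* and *Tuba1c* the shares at 75 bases were 70.4%, 78.3% and 56.7%. In *Tuba4a*, 1379 of the 3701 exonic bases, 37.3%, also belong to exons of *Stk16* on the opposite strand. The library kit does not mark strand, so reads there cannot be assigned to either gene. *Stk16* had between 0.766 and 3.81 CPM, that is, counts per 1000000 counts of the library.

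The total count over all genes ranged from 7205010 to 18454549 per library, and the fl/fl libraries, with 7801470 to 10759741, were among the shallower. *Kif11*, the targeted gene, counted over all its exons, had 23.8 to 43.2 CPM in wt/fl, 17.6 to 30.5 in wt/fl Spo11-Cre, 7.49 to 14.6 in fl/del and 1.08 to 2.70 in fl/del Spo11-Cre. The 2 Gdf9-Cre libraries had 4.90 and 5.11 CPM, and the 2 Zp3-Cre libraries 4.27 and 7.95. All 12 oocyte markers were detected in all 21 libraries, with a summed level of 25859 to 34690 CPM. The 12 follicle cell markers summed to between 52.6 and 92.3 CPM, of which *Cyp19a1* made 46.5 to 80.5 CPM. *Kitl* was also found in all 21 libraries, at 1.74 to 7.42 CPM, and *Fshr*, *Cyp11a1* and *Star* were each at 0 in only 2. *Lhcgr* was at 0 in 10 libraries, *Inha* and *Inhba* in 12 each and *Hsd17b1* in 16. *Amh* was at 0 in 18 libraries, *Amhr2* in 20 and *Foxl2* in all.

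*Tuba3a*, a testis isotype, was the main alpha tubulin mRNA of these oocytes. Per length, in the TPM scale of transcripts scaled to 1000000 per library, its mean level over the 21 libraries was 1096 TPM, with libraries between 898 and 1298. *Tuba4a*, the isotype without an encoded final tyrosine, followed with 289 TPM (226 to 371). Every library had less *Tuba4a* than the lowest library had *Tuba3a*. *Tuba3b* reached 139 TPM (59.1 to 236) and *Tuba1c* 120 TPM (69.6 to 192). Their order could not be told, since *Tuba3b* was above *Tuba1c* in 11 of 21 libraries. The ranges of *Tuba4a* and *Tuba3b* overlapped over all libraries, although *Tuba4a* was higher within each of the 21. *Tuba1b*, the ubiquitous isotype of somatic cells, had 42.5 TPM (29.0 to 61.6), below *Tuba1c* in all 21 libraries. *Tuba1a*, the neuronal isotype, had 1.69 TPM (0 to 3.87), and *Tuba8*, an isotype of testis and muscle, 0.0379 TPM (0 to 0.301).

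As a share of the summed TPM of the 7 genes, *Tuba3a* made 64.9% ± 2.72 (SD, n = 21), *Tuba4a* 17.2% ± 1.94, *Tuba3b* 8.07% ± 2.59, *Tuba1c* 7.16% ± 1.77 and *Tuba1b* 2.54% ± 0.548. *Tuba1a* made 0.101%. *Tubal3*, which is not in these shares, had 69.5 ± 10.4 TPM (SD, n = 21), a mean between those of *Tuba1c* and *Tuba1b*. The isotype order at the top was thus the same in every group of oocytes, as the bars for single libraries show. The shares of 1 library sum to 100, so a gene cannot gain share without others losing it.

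**Figure D1:**
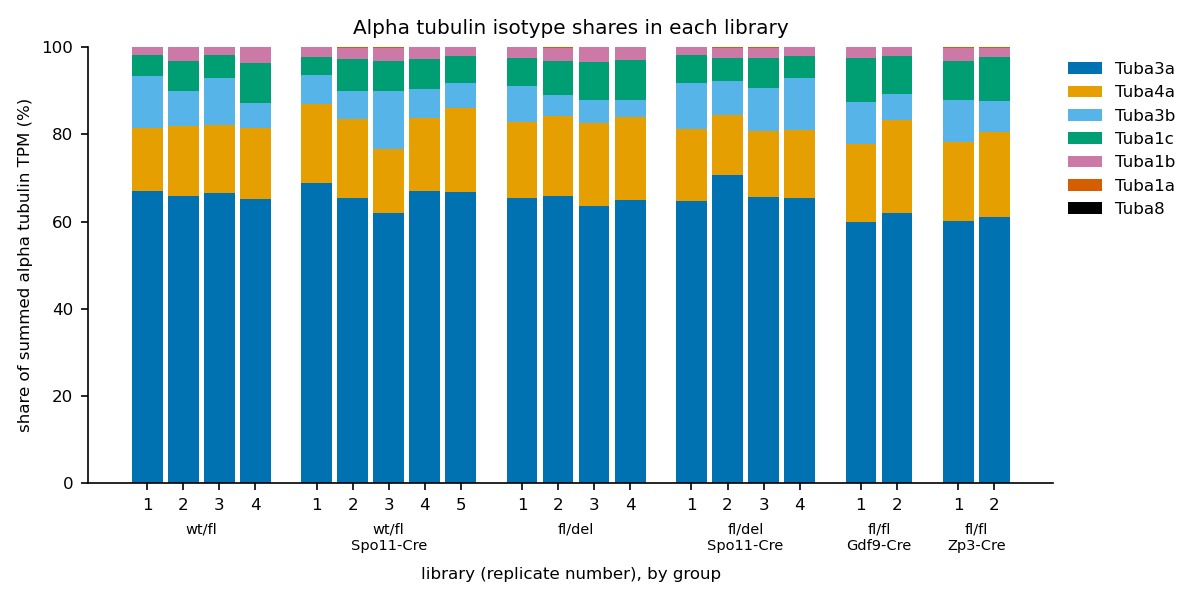
Stacked bars give the share of each alpha tubulin gene in the summed TPM of the 7 genes (y axis, percent) for each of the 21 libraries, labelled by replicate number within group (x axis). The lowest segment, *Tuba3a*, is the largest in all libraries, from 59.9% to 70.6%, and *Tuba1a* and *Tuba8* are too small to be seen in most bars.

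The sizes of these shares depend on how length is counted. The TPM divide the counts by all exonic bases of a gene. For *Tuba4a* these include the bases shared with *Stk16*, and for *Tuba1b* the 513 of 1875 bases, 27.4%, shared with *Gm49450* and the antisense gene *Gm41396*. Per exonic base that belongs to no other gene, the mean share was 59.6% for *Tuba3a*, 23.9% for *Tuba4a*, 7.06% for *Tuba3b*, 6.24% for *Tuba1c* and 3.04% for *Tuba1b*. Of the counts themselves, without regard to length, *Tuba3a* took 49.7% and *Tuba4a* 32.2%. *Tuba3a* came first and *Tuba4a* second under each of the 3 scalings, and *Tuba1c* was above *Tuba3b* only in the shares of counts. None of the 3 scalings adds back reads that were not counted because they did not map uniquely. The shares of *Tuba1a*, *Tuba1b* and *Tuba1c* may thus be too low, and that of *Tuba3a* too high.

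**Figure D2:**
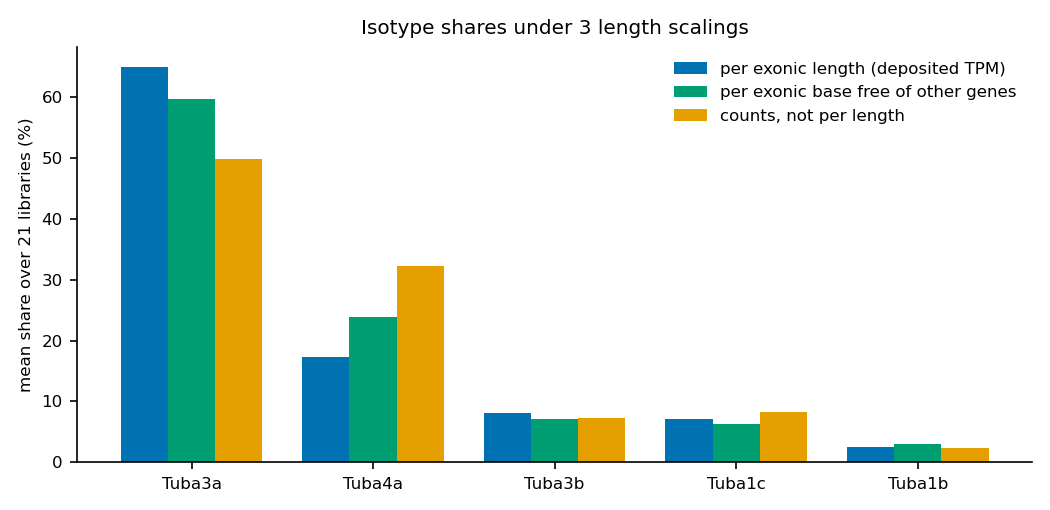
Bars give the mean share over 21 libraries (y axis, percent) of 5 alpha tubulin genes under 3 length scalings, which are the deposited TPM, counts per exonic base free of other genes, and counts with no length. *Tuba3a* falls from 64.9% to 49.7% and *Tuba4a* grows from 17.2% to 32.2% between the first and the last scaling.

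The shares by genotype and driver are given without a test, as a description. In wt/fl the *Tuba3a* share was 67.0, 65.8, 66.6 and 65.1%. It was 68.8, 65.4, 61.9, 67.1 and 66.7% in wt/fl Spo11-Cre, 65.4, 65.7, 63.6 and 64.9% in fl/del, and 64.7, 70.6, 65.7 and 65.3% in fl/del Spo11-Cre. With Gdf9-Cre it was 59.9 and 62.0%, and with Zp3-Cre 60.1 and 60.9%. All 4 fl/fl libraries thus lay below all 4 wt/fl libraries, but replicate 3 of wt/fl Spo11-Cre, at 61.9%, was below replicate 2 of Gdf9-Cre. The *Tuba4a* share moved the other way. It was 14.4 to 16.4% in wt/fl, 17.8 and 21.4% in the Gdf9-Cre libraries and 18.2 and 19.6% in the Zp3-Cre libraries. In fl/del it was 17.4 to 19.1%, above every wt/fl library and above the 13.9 to 16.5% of fl/del Spo11-Cre. The wt/fl Spo11-Cre libraries, at 14.8 to 19.2%, overlapped with both. Shares are defined within the listed genes only, so separated ranges have no rate over all genes beside them. Other shares were separated too, among them that of *Tuba1b*. Its share was lower in every fl/del Spo11-Cre library (mean 2.21%) than in any fl/del library (mean 2.92%).

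The summed level of the 7 genes was on average between 90.8% and 103% of the wt/fl mean in all groups. It was 1413 ± 60.7 CPM in wt/fl (SD, n = 4), 1318 ± 65.2 in wt/fl Spo11-Cre (n = 5), 1283 ± 96.1 in fl/del (n = 4) and 1449 ± 118 in fl/del Spo11-Cre (n = 4). With Gdf9-Cre it was 1371 and 1543 CPM and with Zp3-Cre 1267 and 1537 CPM. These levels are relative to all RNA of a library of 3 oocytes, in which fewer cells with a transcript and less of it per cell cannot be told apart.

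The genes were tested in each of 10 comparisons with edgeR's quasi-likelihood test, and a change was called at a Benjamini-Hochberg adjusted p under 0.05 over all genes of the comparison. The 10 comparisons were not adjusted for each other. The share of all genes at an unadjusted p under 0.05 is not given, so counts at that threshold have no background beside them. Of the 7 members, 6 had a count above 0 in at least 3 of the 17 libraries without fl/fl and were tested there, all but *Tuba8*, and 7 were tested with all 21 libraries. Between wt/fl Spo11-Cre and wt/fl, 0 of 6 were called by edgeR, beside 2.19% of all genes, and 0 had an unadjusted p under 0.05. Between fl/del and wt/fl 0 of 6 were called, beside 0.0223% of all genes, and 2 had an unadjusted p under 0.05. Between fl/del Spo11-Cre and wt/fl the counts were 0 of 6, beside 0.197%, and 0. Between fl/del and wt/fl Spo11-Cre they were 0 of 6, beside 0.201%, and 2. Between fl/del Spo11-Cre and wt/fl Spo11-Cre they were 0 of 6, beside 0.0357%, and 1. Against wt/fl, 0 of 7 were called with Gdf9-Cre, beside 1.48% of all genes, with 1 at an unadjusted p under 0.05, and 0 of 7 with Zp3-Cre, beside 2.27%, with 2. Between Zp3-Cre and Gdf9-Cre 0 of 7 were called, beside 0.891%, with 0 at an unadjusted p under 0.05. In fl/del Spo11-Cre against fl/del 1 of 6, *Tuba3b*, was called, beside 0.241% of all genes in either direction and 0.156% higher. The interaction of driver and allele asks whether the difference that came with Spo11-Cre is the same in fl/del as in wt/fl. In the interaction 1 of 6, again *Tuba3b*, was called, beside 0.103% of all genes. The median log2 fold change of the tested members lay between −0.13 and 0.21 in the 10 comparisons, and that of all genes between −0.02 and 0.03. DESeq2 called none of the members in any of the 10 comparisons.

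**Figure D3:**
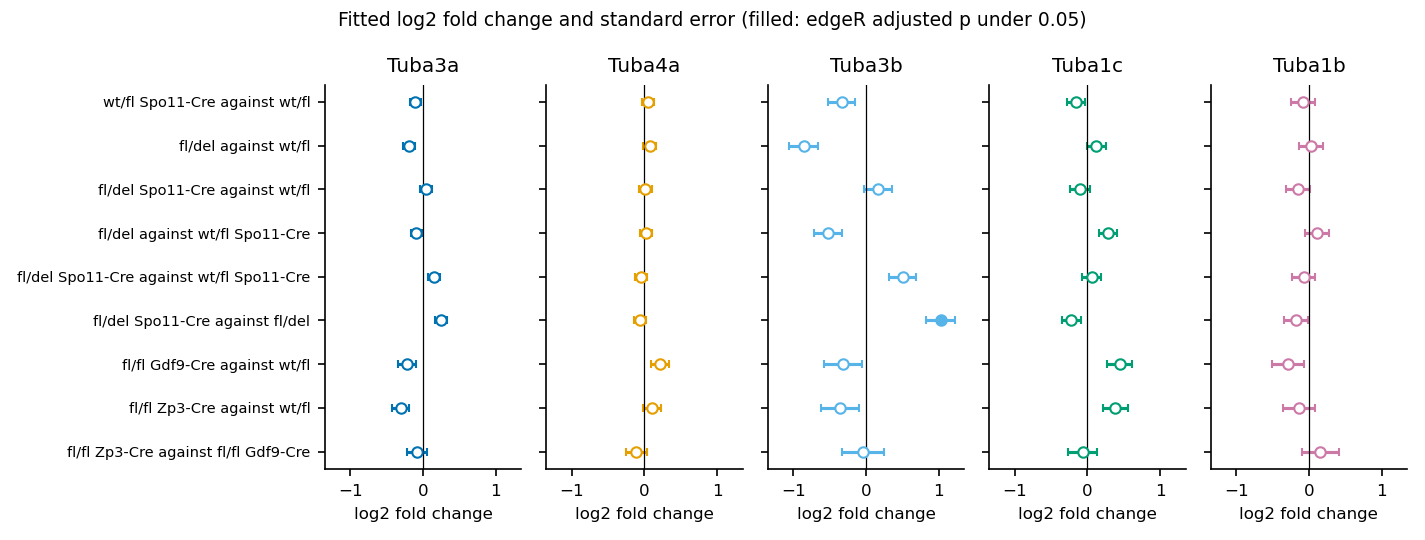
Points give the fitted log2 fold change (x axis) of 5 alpha tubulin genes (panels) in 9 comparisons of groups (y axis), with bars for 1 standard error, filled where the edgeR adjusted p was under 0.05. The single filled point is *Tuba3b* in fl/del Spo11-Cre against fl/del, at 1.03.

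*Tuba3b*, which encodes the same protein as *Tuba3a*, was the most variable of the 5 genes with over 10 CPM. Its biological coefficient of variation in the 17 libraries was 0.201, 1.60 times that of genes of like abundance. The libraries of fl/del had 106, 54.9, 54.7 and 42.9 CPM. Those of fl/del Spo11-Cre had 132, 97.2, 136 and 172 CPM. Every fl/del Spo11-Cre library was above 3 of the 4 fl/del libraries, and the groups overlapped by 1 library each, replicate 1 of fl/del and replicate 2 of fl/del Spo11-Cre. The mean was 64.6 ± 28.0 CPM in fl/del and 134 ± 30.7 CPM in fl/del Spo11-Cre (SD, n = 4 each). In edgeR *Tuba3b* rose by a log2 fold change of 1.03 (SE 0.20, adjusted p = 0.00333). The call depended on the model of the spread. DESeq2 gave the same log2 fold change of 1.03 with an SE of 0.354 and an adjusted p of 0.192, edgeR after the stricter filter filterByExpr gave an adjusted p of 0.0817, and edgeR without replicate 4 of fl/del gave 0.86 with an adjusted p of 0.0552. A two-sided exact permutation test on the CPM of *Tuba3b*, 4 libraries against 4, gave p = 0.0571.

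In wt/fl *Tuba3b* had 167, 102, 137 and 69.9 CPM, a mean of 119 ± 42.1 (SD, n = 4). The wt/fl Spo11-Cre libraries had 85.6, 72.6, 160, 76.9 and 68.1 CPM, a mean of 92.6 ± 38.2 (SD, n = 5). Replicate 3 of that group stood apart from its 4 others, and the control libraries alone spanned most of the range of all groups. The log2 fold change was −0.34 (SE 0.18, edgeR adjusted p = 0.387) in wt/fl Spo11-Cre and 0.17 (SE 0.19, adjusted p = 0.834) in fl/del Spo11-Cre, each relative to wt/fl. In fl/del it was −0.86 (SE 0.20), and with an edgeR adjusted p of 0.155 this difference did not pass. It did pass in other edgeR fits of the *Tuba3b* counts, without a filter on low counts (−0.86, adjusted p = 4.96e-10), with the replicate number as a block (−0.85, adjusted p = 2.00e-10), with the table that counts *Kif11* over its last exon alone (−0.87, adjusted p = 0.0459) and with counts summed over libraries whose names share a prefix (−0.91, adjusted p = 0.0461). In the first 2 of these fits edgeR gave infinite weight to the spread of all genes. The replicate numbers do not pair the libraries, so the labels give no ground for that block. DESeq2 did not call this difference, and a two-sided exact permutation test on the *Tuba3b* CPM of fl/del and wt/fl gave p = 0.0857. Without replicate 4 of wt/fl the log2 fold change was −1.04 (edgeR adjusted p = 0.0192), and without replicate 1 of fl/del −1.22 (edgeR adjusted p = 5.08e-04). The interaction was 1.36 on the log2 scale (SE 0.27, edgeR adjusted p = 0.0197), the difference that came with Spo11-Cre being 1.03 in fl/del and −0.34 in wt/fl. DESeq2 gave an interaction of 1.37 (adjusted p = 0.125), filterByExpr an edgeR adjusted p of 0.153 and the fit of all 21 libraries one of 0.0528. The interaction was also lost without replicate 1 of wt/fl (1.16, edgeR adjusted p = 0.104), without replicate 2, 3 or 4 of fl/del and without replicate 4 of fl/del Spo11-Cre. With Gdf9-Cre *Tuba3b* had 132 and 69.4 CPM and with Zp3-Cre 107 and 93.9 CPM, of which 3 lay within the range of wt/fl and the lowest just under it. Of the 12 oocyte markers, *Ooep* was called in the interaction as well (−0.56, SE 0.13, edgeR adjusted p = 0.0485), and 0 of 9 tested follicle cell markers were. In the comparison of the 2 fl/del groups neither list had a gene called by edgeR. However, 7 of the 12 oocyte markers had an unadjusted p under 0.05, all of them with a negative log2 fold change. The share of all genes at that threshold is not given here. The median of the 12 was −0.19, against 0.0085 over all genes, and their summed level was 31147 to 33523 CPM in fl/del and 25859 to 32028 CPM with Spo11-Cre. Of 9 tested follicle cell markers 1 had an unadjusted p under 0.05 there, and the list summed to 71.0 to 84.3 and 67.6 to 84.1 CPM. The part of these markers in the *Tuba3b* results was not tested.

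**Figure D4:**
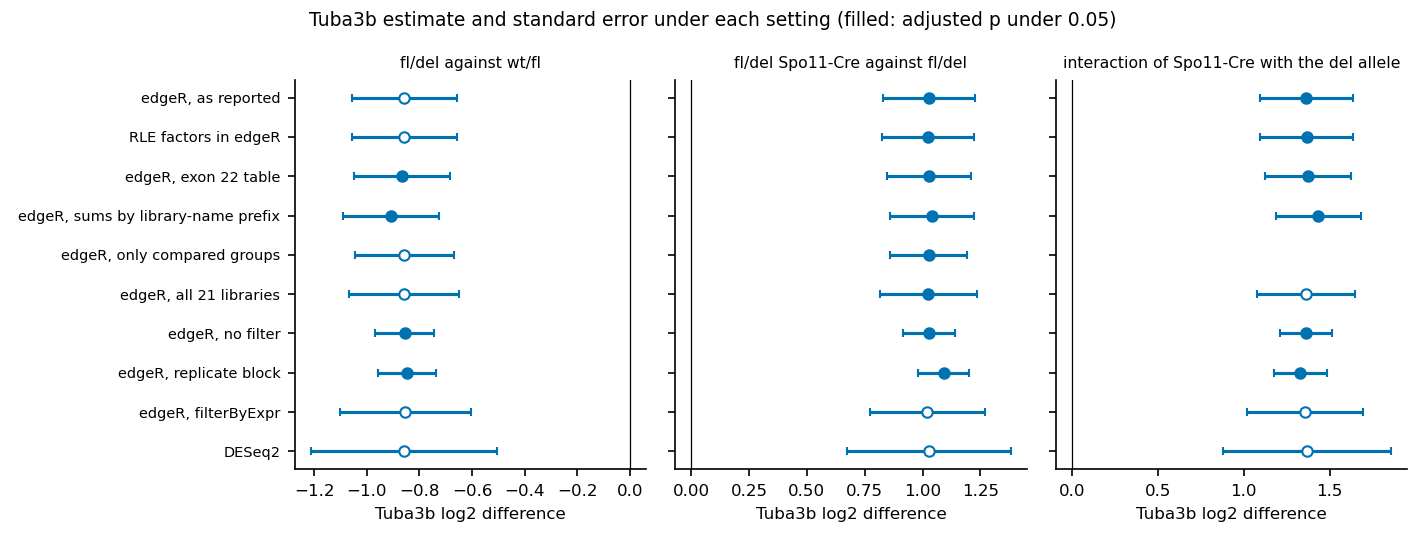
Points give the *Tuba3b* log2 difference (x axis) with 1 standard error in 3 comparisons (panels) under each way of fitting the counts (y axis), filled where the adjusted p was under 0.05. The differences stay in place, near −0.86, 1.03 and 1.36, while the width of the error and the call change, and DESeq2 has the widest error.

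Libraries whose names share a prefix were not nearer to each other in *Tuba3b* than other pairs of a group. The median absolute log2 difference was 0.571 over the 8 pairs with the same prefix and 0.399 over the 20 other pairs. Both libraries of each fl/fl group share a prefix and are not among these pairs. What a prefix stands for is not given in the sources used here.

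*Tuba3a*, the dominant gene, had 799, 713, 723 and 680 CPM in wt/fl. In fl/del it had 713, 615, 576 and 610 CPM, lower on average but with replicate 1 at the level of the control. In fl/del Spo11-Cre it had 696, 743, 775 and 806 CPM, overlapping with both. The log2 fold change was −0.20 (SE 0.08, edgeR adjusted p = 0.576) in fl/del against wt/fl, 0.24 (SE 0.08, adjusted p = 0.338) in fl/del Spo11-Cre against fl/del, and 0.35 (SE 0.11, adjusted p = 0.241) for the interaction, none of which passed. Its 5 wt/fl Spo11-Cre libraries lay between 615 and 745 CPM. With Gdf9-Cre *Tuba3a* had 693 and 620 CPM and with Zp3-Cre 570 and 691 CPM, with a log2 fold change against wt/fl of −0.22 (SE 0.12, edgeR adjusted p = 0.480) and −0.31 (SE 0.12, adjusted p = 0.212). The latter depended on the library left out, with −0.50 (edgeR adjusted p = 0.0245) without replicate 2 of Zp3-Cre and −0.13 (edgeR adjusted p = 0.880) without replicate 1. Each of these fits leaves 1 Zp3-Cre library, which is assumed to vary like the other groups.

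**Figure D5:**
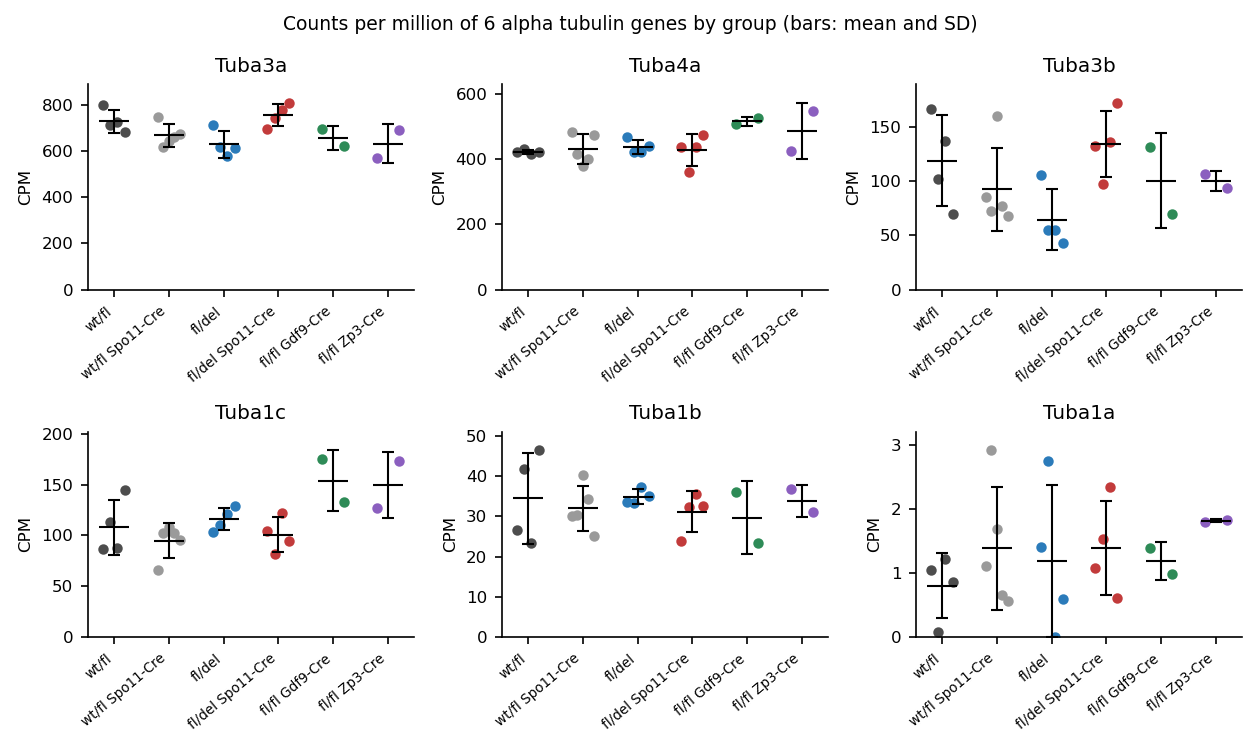
Points give the CPM (y axis, from 0) of 6 alpha tubulin genes (panels) in each library by group (x axis), with the mean and SD as bars. *Tuba3b* shows the widest spread among the more abundant genes, from 42.9 to 172 CPM, while the 4 wt/fl libraries of *Tuba4a* lie within 415 and 431 CPM.

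*Tuba4a* had 421, 431, 415 and 421 CPM in wt/fl, all within 415 and 431. With Gdf9-Cre it had 505 and 524 CPM, above all wt/fl libraries, as did 11.7% of all genes in that comparison. With Zp3-Cre it had 425 and 546 CPM and overlapped with wt/fl. The log2 fold change against wt/fl was 0.21 (SE 0.12, edgeR adjusted p = 0.533) with Gdf9-Cre and 0.10 (SE 0.13, adjusted p = 0.788) with Zp3-Cre. In the groups of the Spo11-Cre background it ranged from 377 to 483 CPM in wt/fl Spo11-Cre, from 421 to 467 in fl/del and from 359 to 474 in fl/del Spo11-Cre, and each of these ranges overlapped with that of wt/fl. Beside its larger share in fl/del, the log2 fold change of its own level there, relative to wt/fl, was 0.07 (SE 0.09, edgeR adjusted p = 0.891).

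*Tuba1c*, a ubiquitous isotype, had 86.3, 114, 87.2 and 144 CPM in wt/fl. It had 175 and 133 CPM with Gdf9-Cre and 127 and 173 CPM with Zp3-Cre. The higher library of each fl/fl pair was above every wt/fl library, and the lower one was not. The log2 fold change against wt/fl was 0.44 (SE 0.17, edgeR adjusted p = 0.240) and 0.38 (SE 0.17, adjusted p = 0.320), and neither passed. Without single libraries the *Tuba1c* values ranged from 0.24 to 0.64 with Gdf9-Cre, the ends being the fits without replicate 1 and without replicate 2 of that group, and from 0.095 (without replicate 2) to 0.63 (without replicate 1) with Zp3-Cre. In fl/del *Tuba1c* had 104 to 129 CPM against 65.8 to 109 CPM in wt/fl Spo11-Cre, a log2 fold change of 0.28 (SE 0.12, edgeR adjusted p = 0.509), and in fl/del Spo11-Cre it had 81.5 to 122 CPM. *Tuba1b*, its neighbour on chromosome 15, lay between 23.3 and 46.5 CPM over all libraries, and the 4 wt/fl libraries spanned this range almost whole. Its 9 log2 fold changes between groups lay between −0.28 and 0.15. *Tuba1b* was also the member whose counts depended most on the table. Counts over all exons were 1.56 times those of the table with the last exon of *Kif11* alone, against 1.93 to 1.98 times for the other 5 genes with a ratio and a median of 1.94 for all genes with at least 100 counts.

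*Tuba1a* was near the limit of detection, with 0 to 46 counts per library. It had 1.05, 0.0786, 1.21 and 0.859 CPM in wt/fl and 1.79 and 1.83 CPM with Zp3-Cre. Both Zp3-Cre libraries were above all wt/fl libraries, as were 11.1% of all genes, and above the 1.39 and 0.979 CPM of Gdf9-Cre, as were 14.6%. The edgeR adjusted p of *Tuba1a* was 0.682 and 1.00 in these comparisons. Libraries of the other groups reached higher levels, up to 2.91 CPM in wt/fl Spo11-Cre. The 0 counts of replicate 3 of fl/del allow a *Tuba1a* level of up to 0.416 CPM (3 counts). *Tuba8* had 4 counts in replicate 1 of wt/fl, 2 in replicate 3 of fl/del, 2 in replicate 1 of Gdf9-Cre and 0 in the other 18 libraries, which allows up to 0.163 to 0.385 CPM in each of those. The library kit adds no molecular identifiers, so PCR copies count as reads and these limits cover counting error only. They also take each count as an independent event. Counts over all exons were in the median 1.94 times those of the table with the last exon of *Kif11* alone. If both reads of a pair were counted singly, the limits are too low.

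The partners of alpha tubulin were read from lists of other tubulins (13 genes), tubulin folding factors (21), enzymes that modify alpha tubulin (13) and *Ttc5*, the factor that marks tubulin mRNAs for decay when free tubulin is high. Among the beta tubulins *Tubb4b*, *Tubb6* and *Tubb2a* were highest, with median levels of 1263, 1074 and 1064 TPM, near that of *Tuba3a*. Between wt/fl Spo11-Cre and wt/fl 2 of 12 tested other tubulins fell, *Tubb3*, a neuronal beta tubulin (209 ± 26.3 against 161 ± 13.5 CPM, log2 fold change −0.35, SE 0.10, edgeR adjusted p = 0.0390), and *Tubg2*, a gamma tubulin of nucleation sites (−0.46, SE 0.11, adjusted p = 0.0100), beside 2.19% of all genes called in either direction. The folding gene *Pfdn1*, a subunit of prefoldin, rose there (0.33, SE 0.09, edgeR adjusted p = 0.0341), 1 of 21. *Tubb2b*, a beta tubulin of developing brain, rose in both fl/fl groups against wt/fl, 1 of 12 each, beside 1.48% of all genes called with Gdf9-Cre and 2.27% with Zp3-Cre. It had 15.8 ± 1.95 CPM in wt/fl, 30.7 ± 2.13 with Gdf9-Cre (0.89, SE 0.23, edgeR adjusted p = 0.0227) and 37.6 ± 2.61 with Zp3-Cre (1.15, SE 0.23, edgeR adjusted p = 8.27e-04). With Zp3-Cre 2 of 21 folding genes were called, *Tbca*, a beta tubulin chaperone that rose (0.79, SE 0.15, edgeR adjusted p = 6.47e-04), and *Cct5*, a subunit of the chaperonin CCT that fell (−0.42, SE 0.11, adjusted p = 0.0241). Of these calls, only that of *Tubb2b* with Zp3-Cre passed in edgeR without each single library. That of *Tbca* was lost without replicate 1 of Zp3-Cre (0.48, edgeR adjusted p = 0.361, with 1 library left in the group). That of *Cct5* was lost without the same library or without replicate 1 or 2 of wt/fl, with values from −0.47 to −0.35 over all libraries left out. The *Tubb2b* call with Gdf9-Cre was lost without replicate 1 or 3 of wt/fl or either Gdf9-Cre library (0.83 to 0.97 over all), and that of *Tubg2* without replicate 4 of wt/fl (−0.33, edgeR adjusted p = 0.138). The *Tubb3* call was lost without replicate 1, 2 or 4 of wt/fl or replicate 2, 3, 4 or 5 of wt/fl Spo11-Cre (−0.43 to −0.30 over all), and that of *Pfdn1* without replicate 2 or 4 of wt/fl or replicate 2 or 5 of wt/fl Spo11-Cre (0.26 to 0.37 over all). None of these lists had a called gene in the other comparisons, *Tuba3b*'s included, none of the 11 or 12 tested modifying enzymes was called by edgeR anywhere, with up to 3 at an unadjusted p under 0.05 in a comparison, and *Ttc5* had an unadjusted p above 0.05 throughout. In the 3 comparisons with calls, oocyte markers were called too, *Ooep* (0.33) and *Zp1* (−0.30) with Spo11-Cre in wt/fl, *Zp1* (−0.56) with Gdf9-Cre and *Zp3* (−0.43) with Zp3-Cre, and no follicle cell marker was. Their part in the results was not tested.

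Among the 17 libraries without fl/fl, in which the genes share each library's depth and amplification, *Tuba3a* and *Tuba3b* varied together (Pearson's r = 0.757 and Spearman's rho = 0.762 on log2(CPM + 1)), and so did *Tuba1b* and *Tuba1c* (r = 0.608, rho = 0.745). *Tuba1c* and *Tuba3a* had an r of −0.492. Of 7718 genes with a mean of at least 10 CPM, those most like each member were *Psmd8* for *Tuba3a* (r = 0.847), *Ppp2r2d* for *Tuba3b* (r = 0.810) followed by *Tuba3a*, *Dym* for *Tuba4a* (r = 0.710), *Sel1l* for *Tuba1c* (r = 0.902) and *Cfap300* for *Tuba1b* (r = 0.797). These values are descriptions over the same libraries as the comparisons.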

How the data were processed

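Poly(A) RNA of 21 libraries was sequenced by the authors as paired 150-base reads after full-length cDNA amplification and tagmentation, and per the labels and methods it was trimmed with fastp, aligned to GRCm38 with HISAT2 2.2.1 and counted per gene with featureCounts 2.0.3 on Ensembl release 93. The deposited counts are whole numbers of uniquely mapped reads, without normalization. The deposited TPM were computed by the authors by a method not stated, and the length behind them equalled the exonic bases of each member. How read pairs were counted is not given in the sources used here. Of 54232 identifiers 54079 had a symbol in GENCODE M21. The members and the other lists were chosen with earlier results of these data known.

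CPM are counts scaled to a library total of 1000000, and isotype shares are shares of the 7 members' summed TPM. Tests used edgeR 4.0.16 in R 4.3.3 (estimateDisp, glmQLFit and glmQLFTest, TMM library sizes, genes above 0 counts in 3 or more libraries), on 17 libraries (22383 genes) or, for the fl/fl groups, 21 (23225 genes). The study used DESeq2, which here (1.42.0) is an alternative. Besides members and *Kif11*, the text names genes of the lists with an adjusted p under 0.05, at most 3 per list and comparison, and for each member with a mean of at least 10 CPM the genes of highest Pearson correlation. The beta tubulins of highest level and the genes overlapping members were named after their values were seen. Exact permutation tests were two-sided, and 63 were computed, with raw p. Pairs of libraries of a group differed by 9.90 to 32.2 times sampling noise (chi-square per degree of freedom), so none was counted as a duplicate. That noise takes each count as independent, and it is too low if both reads of a pair were counted singly. The alternatives were DESeq2, RLE factors, no filter, filterByExpr, the other count table, sums by library-name prefix, the replicate number as a block, other libraries in the fit and leaving out each library. The code was tested on simulated counts. Descriptions were computed in Python 3.11.15 (pandas 2.3.3, numpy 2.4.6), with rank correlations from scipy 1.17.1, and plots were drawn with matplotlib 3.10.9. The sequence of 1 member's tail is not reported here.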

Additional observations from a re-analysis of the deposited data

Results flagged for a closer look

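Of 52 groups of 4 or 5 values of the members, 3 had a library far from the others of its group by Dixon's test, which chance gives in about 1 of 20. Replicate 3 of wt/fl Spo11-Cre had 160 CPM of *Tuba3b*, with its 4 others between 68.1 and 85.6 CPM, and its *Tuba3b* share was 13.1% with the others between 5.75 and 6.71%. Without it, the edgeR log2 fold change of *Tuba3b* between wt/fl Spo11-Cre and wt/fl was −0.63 (adjusted p = 0.0320). That between fl/del Spo11-Cre and wt/fl Spo11-Cre was 0.80 (edgeR adjusted p = 0.0295). Neither had passed with that library. The library was singled out by its *Tuba3b* level, so these p-values are not independent of that choice. Replicate 2 of fl/del Spo11-Cre had a *Tuba3a* share of 70.6%, with the others between 64.7 and 65.7%. The *Tuba3b* difference that came with Spo11-Cre differed between the fl/del and wt/fl backgrounds by 1.36 on the log2 scale in edgeR. DESeq2 did not call it. Mean *Kif11* was also lower with Spo11-Cre, at 24.6 against 34.5 CPM in wt/fl and 1.78 against 11.9 CPM in fl/del. Presence of Cre and loss of *Kif11* thus cannot be told apart.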

How the results depend on the processing

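The number of called members changed with the setting for 8 of the 10 comparisons, and *Tuba3b* accounted for most of these changes. For *Tuba3b*, fl/del Spo11-Cre against fl/del had 1 call as reported and 0 with DESeq2 and with filterByExpr, and the interaction had 1 as reported and 0 with DESeq2, with filterByExpr and in the fit of all 21 libraries. Without a filter on low counts, 1 member instead of 0 was called in both wt/fl Spo11-Cre and fl/del relative to wt/fl, and in both groups with the del allele relative to wt/fl Spo11-Cre. In fl/del against wt/fl the table with the last exon of *Kif11* alone and the sums by prefix each called 1. Leaving out single libraries gave from 0 to 1 called members in these 6 comparisons and in Zp3-Cre against wt/fl, where *Tuba3a* passed without replicate 2 of Zp3-Cre, and 0 in the other 3. The estimates moved less than the calls. For *Tuba3b* they ranged over single left-out libraries from 0.86 to 1.39 in fl/del Spo11-Cre against fl/del, from 1.16 to 1.72 in the interaction and from −1.22 to −0.65 in fl/del against wt/fl, and they changed sign in fl/del Spo11-Cre against wt/fl (−0.014 to 0.37), Gdf9-Cre against wt/fl (−0.84 to 0.080) and Zp3-Cre against Gdf9-Cre (−0.43 to 0.49), none of which was called. The weight that edgeR gives to the spread of all genes, expressed as prior degrees of freedom, also differed between settings. It was 43.7 for *Tuba3b* as reported, against 13 residual, 18.3 with filterByExpr and infinite without a filter.

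The mean *Tuba3a* share of 64.9% was 49.7% of counts not divided by length and 59.6% per exonic base free of other genes, an alternative chosen after seeing the data, and between 64.6 and 65.2% without single libraries. The summed CPM stayed within 1 SD of its reported value in all 67 alternatives. Of these, 37 left out 1 library. Leaving out a library of the group itself cannot move the group's mean by 1 SD, so those fits were no test.

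The replicate numbers of the labels do not pair the libraries. Over 42 pairs of libraries with the same number in different groups, the correlation of deviations from the group mean over 7755 genes was −0.331 to 0.264 with a median of −0.0083. With the replicate number as a replicate block, edgeR called 1 member instead of 0 in fl/del against wt/fl, fl/del against wt/fl Spo11-Cre and fl/del Spo11-Cre against wt/fl Spo11-Cre (*Tuba3b*, log2 fold change −0.85, −0.61 and 0.48), and in Gdf9-Cre and Zp3-Cre against wt/fl (*Tuba1c*, 0.58 with adjusted p = 0.0129 and 0.50 with adjusted p = 0.0478). The *Tuba3b* difference of Zp3-Cre from Gdf9-Cre turned from −0.040 to 0.039 under the block, with 0 calls in either. The prior degrees of freedom were infinite in the block fit, and the cause of its calls was not tested.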
